A study of Homo sapiens with 16 samples.

Results

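The genes described here are 49 genes of the DNA replication machinery, from the proteins that mark origins to those that move with the fork. They were chosen by name, from origin licensing, the replicative helicase, the polymerases, and the sliding clamp with its loader, and all 49 were found by symbol among the 58676 Ensembl gene identifiers of the count files. The rule uses names and no values, and it was written with earlier results of these data known. Poly(A) RNA was read from 2 established human cancer lines, A549 from lung and SUM159 from triple negative breast cancer. A549 was grown in RPMI, and SUM159 in another medium with added insulin and hydrocortisone. Line and medium therefore cannot be told apart in the comparisons between lines. Cells of each line were left untreated (UT) or received 2 µM palbociclib (PD), 3 µM indisulam (IN) or both compounds at those doses (P+I) for 16 h. Palbociclib inhibits CDK4 and CDK6, and indisulam is a sulfonamide that directs the splicing factor RBM39 to degradation. The 16 libraries form 8 groups of 2, and the study calls the duplicates technical, so every error given here is the spread between technical duplicates and does not reach to other cultures.

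Libraries held between 18306636 and 34075588 gene counts. Levels are given in CPM, which states a gene's counts relative to the total of its library after TMM scaling, the default of edgeR that rests on most genes not changing. At these depths 3 counts, taken as the smallest level that could be seen, lay between 0.0880 and 0.164 CPM, and all 49 genes passed the filter on low counts in both lines. Floors cover counting error only. The line labels were checked on marker genes. The epithelial gene CDH1 stood between 56.1 and 103 CPM in A549 and between 0.136 and 0.587 CPM in SUM159, whereas the mesenchymal gene SNAI2 stood between 0.195 and 1.07 CPM in A549 and between 39.9 and 62.1 CPM in SUM159. ESR1 and PGR, the hormone receptor genes that triple negative tumours lack, reached at most 0.792 CPM in SUM159. Of the markers of other cells, the leukocyte gene PTPRC stood between 2.88 and 4.52 CPM and the endothelial gene PECAM1 between 16.5 and 38.5 CPM in SUM159, and neither exceeded 1.36 CPM in A549. Their part in the results was not tested.

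Replication starts in steps. In G1 the origin recognition complex (ORC) and the loaders CDC6 and CDT1 place the ring-shaped MCM2-7 helicase on DNA, which licenses the origin. At the start of S phase the CDC7-DBF4 kinase and the cyclin-dependent kinases let CDC45 and the GINS complex join the ring, and the active helicase then unwinds DNA ahead of the polymerases. Many of these genes are transcribed under E2F factors. CDK4 and CDK6 phosphorylate RB and so release E2F, which is why genes of this kind are often read out after CDK4/6 inhibition.

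A RefSeq promoter window, from 250 bases before to 50 bases after the transcription start on GRCh38.p14, was available for 42 of the 49 genes. The E2F letters TTTGGCGC, TTTCCCGC, TTTCGCGC or TTTGCCGC were searched on both strands and overlapping matches were counted separately. At least 1 match lay in 18 of the 42 windows (42.9%), against 616 of the 12340 windows of genes tested in A549 or SUM159 (4.99%). The CHR letters TTTGAA, an element typical of genes of late cell cycle phases, lay in 1 of 42 windows (2.38%), that of DBF4, against 10.4% of all windows. CCAAT, the letters bound by NF-Y, lay in 24 of 42 windows (57.1%) against 36.6%. A match is a description of the letters and not a measured binding site. Windows are shown for MCM6, which held the most matches of these windows, and for CLSPN, CDC6, CDC45 and ORC4, which later results name. E2F letters are in capitals, and each window is on its coding strand. MCM6 (chr2:135876394-135876693, minus strand) holds 4 matches, which lie in 2 stretches where the letters of both strands overlap. CLSPN (chr1:35769929-35770228, minus strand) and CDC6 (chr17:40287629-40287928, plus strand) hold 1 each. CDC45 (chr22:19479670-19479969, plus strand), the gene that fell most with P+I, and ORC4 (chr2:148021502-148021801, minus strand), the gene that moved least, hold none of these letters in the window. Only exact letters were counted. The CDC45 and CDC6 windows also hold tttggcgg, which differs from TTTGGCGC in the last letter and was not counted.
MCM6: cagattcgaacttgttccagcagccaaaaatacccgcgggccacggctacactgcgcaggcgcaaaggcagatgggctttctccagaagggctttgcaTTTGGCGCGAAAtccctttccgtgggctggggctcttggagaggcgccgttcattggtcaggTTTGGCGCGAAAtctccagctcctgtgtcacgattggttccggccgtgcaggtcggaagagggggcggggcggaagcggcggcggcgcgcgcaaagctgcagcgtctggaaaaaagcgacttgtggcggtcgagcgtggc
CLSPN: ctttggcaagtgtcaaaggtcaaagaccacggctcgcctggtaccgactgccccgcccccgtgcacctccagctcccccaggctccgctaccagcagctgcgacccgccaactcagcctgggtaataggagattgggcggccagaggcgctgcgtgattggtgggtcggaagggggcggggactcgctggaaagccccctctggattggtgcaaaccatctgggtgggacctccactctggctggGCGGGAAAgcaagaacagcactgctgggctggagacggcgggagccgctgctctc
CDC6: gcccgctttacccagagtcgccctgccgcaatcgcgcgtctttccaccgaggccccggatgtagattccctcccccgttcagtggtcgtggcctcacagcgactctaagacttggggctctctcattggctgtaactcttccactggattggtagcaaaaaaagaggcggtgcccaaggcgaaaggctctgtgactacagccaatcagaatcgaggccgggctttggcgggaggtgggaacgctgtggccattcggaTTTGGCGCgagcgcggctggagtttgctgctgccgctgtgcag
CDC45: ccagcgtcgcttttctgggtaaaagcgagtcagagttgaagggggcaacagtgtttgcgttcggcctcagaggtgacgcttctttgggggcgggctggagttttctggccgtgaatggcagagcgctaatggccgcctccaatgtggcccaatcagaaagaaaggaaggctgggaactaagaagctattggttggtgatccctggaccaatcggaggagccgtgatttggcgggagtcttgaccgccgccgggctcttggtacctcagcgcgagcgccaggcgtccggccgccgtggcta
ORC4: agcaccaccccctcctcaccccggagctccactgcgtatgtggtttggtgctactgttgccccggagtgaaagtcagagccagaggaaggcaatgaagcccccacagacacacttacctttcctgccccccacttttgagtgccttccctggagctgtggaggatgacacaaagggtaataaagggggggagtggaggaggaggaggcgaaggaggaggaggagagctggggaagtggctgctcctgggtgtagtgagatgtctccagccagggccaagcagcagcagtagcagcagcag
The changes of genes with and without E2F letters overlapped. In A549 with PD the 18 genes with E2F letters changed by a median of -1.44 on the log2 scale (from -2.31 to -0.261) and the 24 without by -1.24 (from -2.02 to 0.115). With P+I in A549 the medians were -1.93 and -1.57. In SUM159 they were -1.36 and -1.03 with PD and -1.71 and -1.26 with P+I (median log2 changes of genes with letters first in each pair). With IN the medians were -0.17 and -0.24 in A549, where the order was the other way, and -0.21 and -0.15 in SUM159.

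PD lowered nearly all of these genes in both lines. In A549, 46 of 49 had lower RNA with PD than in UT at an adjusted p-value under 0.05, while 21.1% of all 15744 genes tested were called lower and 22% higher. In SUM159, 48 of 49 were lower, while 29% of all 16080 genes tested were called lower and 25.5% higher. None of the 49 was higher in either line with edgeR, none at an unadjusted p under 0.05 and none with DESeq2. The median log2 change of the 49 genes was -1.24 in A549 and -1.15 in SUM159, against 0.03 and 0.02 over all genes tested. The log2 change was under -1 for 35 genes in A549 and for 29 in SUM159. At that limit 437 of all 15744 genes tested in A549 and 337 of 16080 in SUM159 were called lower.

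IN alone had smaller effects that ran in both directions. In A549, 28 of the 49 genes were lower with IN, where 25.9% of all genes were called lower, and 5 were higher, where 23.3% of all genes were called higher. In SUM159, 28 were lower (24.9% of all genes) and 7 were higher (21.9% of all genes), and DESeq2 called 27 lower and 2 higher there. The median log2 change was -0.19 in A549 and -0.18 in SUM159, against 0.01 in both lines over all genes. The lower calls shared by both lines numbered 25 and the higher calls 4, which were ORC1, ORC6, GMNN and GINS1. How many of all genes were called alike in both lines was not counted, so these numbers have no background beside them. Several of the rises were small, and their calls were lost in some fits that left out 1 library. The rises of ORC1 in both lines, of ORC6, GMNN and GINS1 in A549 and of RFC1 in SUM159 were called in every fit that left out 1 library. In SUM159 those of ORC6 and GMNN were each lost without any 1 of the 4 UT and IN libraries (0.12 to 0.16 on the log2 scale), that of GINS1 without either UT library, indisulam replicate 1 or either combination replicate (0.09 to 0.14), that of GINS3 without untreated replicate 2 or either indisulam replicate (0.15 to 0.21), and that of POLE without untreated replicate 1 (0.11) or indisulam replicate 2 (0.14). The rise of CDT1 in A549 was lost without untreated replicate 2 or either indisulam replicate (0.25 to 0.37).

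With P+I, 48 of 49 genes were lower in A549 (30.4% of all genes) and all 49 in SUM159 (33.1% of all genes). None was higher with edgeR, at an unadjusted p under 0.05 or with DESeq2, where 27.4% of all genes in A549 and 32.2% in SUM159 were called higher. The median log2 change was -1.69 in A549 and -1.42 in SUM159. PD, IN and P+I were compared with the same UT libraries, so their calls are not independent of each other. Summed over the 49 genes, A549 libraries held 4976 and 4941 CPM in UT, 2167 and 2164 with PD, 4250 and 4279 with IN and 1609 and 1620 with P+I. The sums in SUM159 were 5674 and 5723 CPM in UT, 2700 and 2622 with PD, 4977 and 4997 with IN and 2207 and 2254 with P+I. Thus the sum fell to 43.7% of UT with PD and to 32.6% with P+I in A549, and to 46.7% and 39.1% in SUM159. No group overlapped another within a line.

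Genes of mitosis and proliferation moved with them under PD and P+I. All 18 of a fixed list, among them MKI67, CCNB1 and PLK1, were lower with PD and with P+I in both lines. Of all genes, 21.1% were called lower with PD and 30.4% with P+I in A549, and 29% and 33.1% in SUM159. Their summed level fell to 21.3% of UT with PD and 19.0% with P+I in A549, and to 33.7% and 25.5% in SUM159. With IN in A549, CCNB2 and TTK were called higher. AURKA, CCNB1, CDK1, CENPF and NUSAP1 were not called there, and the others of the list were called lower. The sum with IN stood at 89.0% in A549 and 87.2% in SUM159. The part of this shift in the changes of the replication genes was not tested, and in bulk RNA fewer cycling cells and less RNA per cell cannot be told apart.

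**Figure D1:**
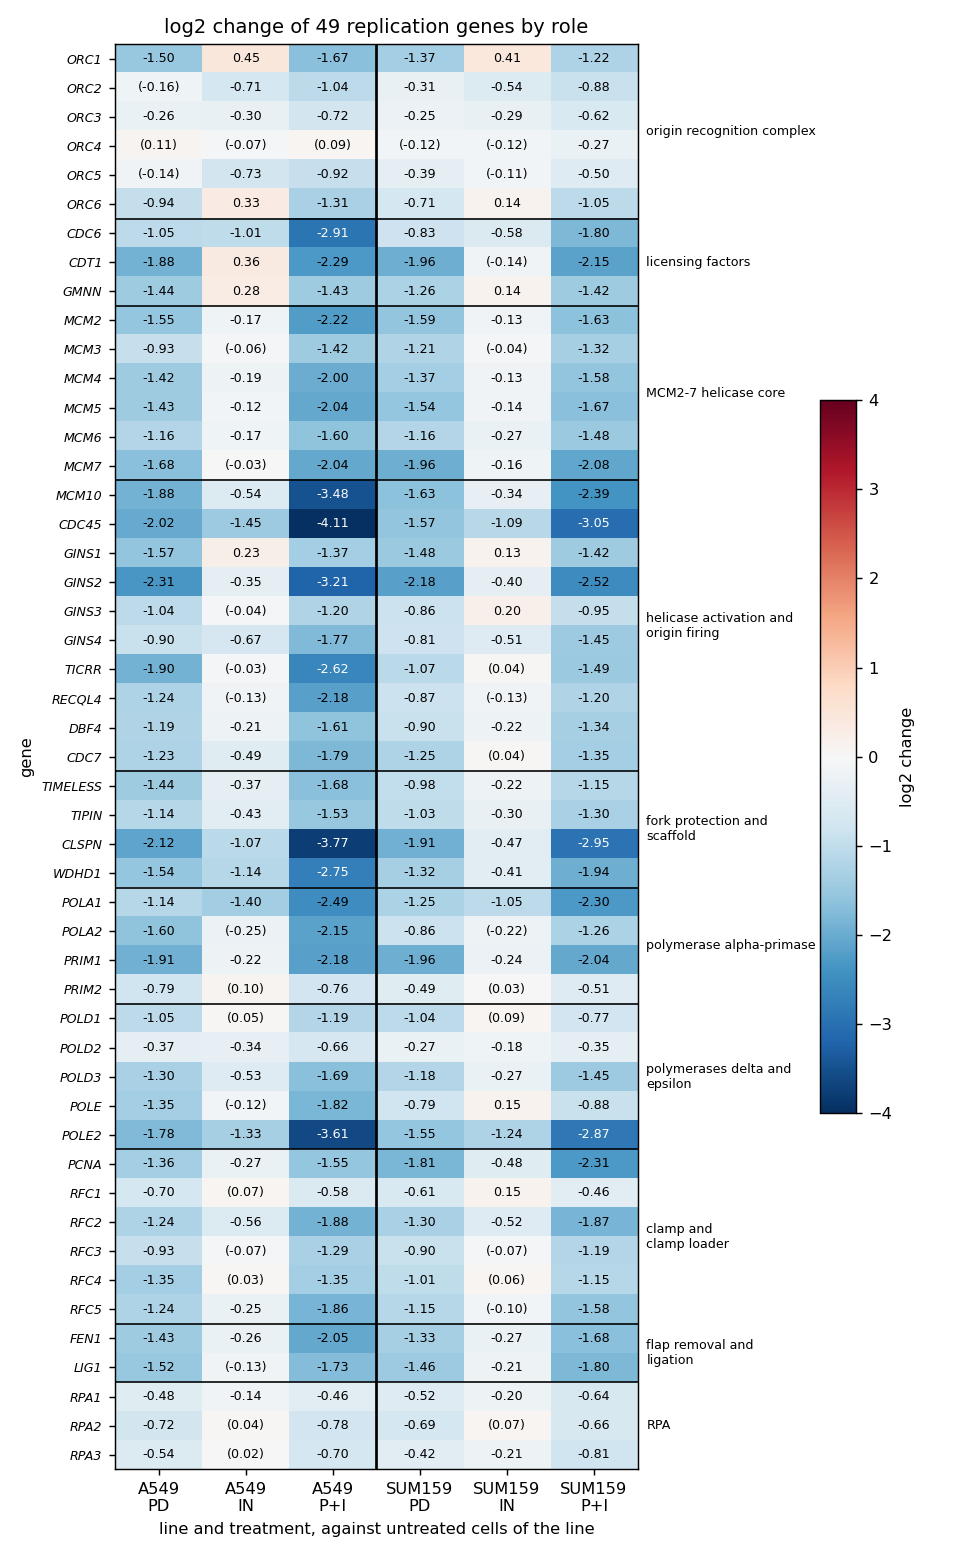
Heat map of the log2 change of each of the 49 genes (rows, grouped by role) against untreated cells of the same line, for PD, IN and P+I in A549 and in SUM159 (columns). Blue is lower and red is higher, and values in parentheses did not pass an adjusted p-value of 0.05. The PD and P+I columns are blue in nearly every row, the IN columns hold values from -1.45 to 0.45, and the rows of ORC3, ORC4 and POLD2 are pale throughout.

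Within ORC, which binds origins and serves as the platform for helicase loading, the subunits split into 2 kinds of response. ORC1, the largest subunit, stood at 58.0 and 56.6 CPM in UT, 20.3 and 20.2 with PD, 77.9 and 78.2 with IN and 18.2 and 17.8 with P+I in A549. In SUM159 the values were 61.3 and 65.5 in UT, 24.7 and 24.2 with PD, 82.9 and 85.5 with IN and 26.9 and 27.4 with P+I. ORC1 was thus low in all PD and P+I libraries and highest in all IN libraries, with no overlap between UT, PD and IN in either line. Its log2 change was -1.50 ± 0.06 (SE) with PD and 0.45 ± 0.05 with IN in A549, and -1.37 ± 0.05 and 0.41 ± 0.05 in SUM159. ORC6, the subunit least like the others, followed the same course. It stood at 36.5 and 37.5 CPM in UT, 19.7 and 19.1 with PD, 47.5 and 45.3 with IN and 13.3 and 16.6 with P+I in A549, and at 47.7 and 48.2, 28.9 and 29.8, 53.4 and 52.1 and 22.9 and 23.5 in SUM159 in the same order, with no overlap between groups of a line. The log2 changes were -0.94 with PD and 0.33 with IN in A549 and -0.71 and 0.14 in SUM159. The 0.14 had an adjusted p of 0.0323 and was lost in 4 of 6 other settings, where the adjusted p over all alternatives ran from 0.00489 to 0.204.

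ORC2, ORC3, ORC4 and ORC5 responded little to PD. Their log2 changes lay between -0.26 and 0.11 in A549, where only ORC3 was called, a call lost without untreated replicate 1 or palbociclib replicate 1 (-0.24 to -0.18), and between -0.39 and -0.12 in SUM159, where ORC2, ORC3 and ORC5 were called. IN lowered ORC2 in both lines, by -0.71 in A549 and -0.54 in SUM159. ORC5 stood at 41.8 and 41.4 CPM in UT and at 25.6 and 24.7 with IN in A549, a log2 change of -0.73 ± 0.06, and at 52.8 and 52.4 and at 49.7 and 48.0 in SUM159, a change of -0.11 ± 0.06 that was not called. The IN change of ORC5 differed between the lines by 0.62 ± 0.09 (adjusted p = 2.38e-05 in the edgeR fit of both lines). ORC4 was the exception of the whole set in A549. It stood at 27.6 and 28.2 CPM in UT and 28.6 and 30.7 with P+I, a log2 change of 0.09 ± 0.07 (adjusted p = 0.288), and it was the only gene of the 49 not called lower with P+I. With libraries scaled to their total counts it was called higher there. In SUM159 it was lower with P+I by -0.27.

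Of the licensing factors, CDC6, the ATPase that with CDT1 loads MCM2-7, was lowered by each compound alone and more by both. In A549 it stood at 143 and 143 CPM in UT, 71.6 and 67.5 with PD, 70.96 and 71.1 with IN and 18.95 and 19.2 with P+I, which left 13.3% of the UT level. In SUM159 it stood at 254 and 256 in UT, 146 and 141 with PD, 170.4 and 171 with IN and 70.3 and 76.3 with P+I, which left 28.7%. All P+I libraries of a line lay below all its other libraries. The log2 change with P+I was -2.91 ± 0.06 in A549 and -1.80 ± 0.04 in SUM159.

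CDT1, the other loading factor, followed PD and not IN. It stood at 55.8 and 46.9 CPM in UT, 13.2 and 14.5 with PD, 66.2 and 66.0 with IN and 13.5 and 7.45 with P+I in A549. The SUM159 values were 41.1 and 40.8 in UT, 9.41 and 11.5 with PD, 36.3 and 38.2 with IN and 8.67 and 9.93 with P+I. Relative to their mean, the duplicates of P+I in A549 lay wider apart than those of any other CDT1 group, and the PD and P+I groups overlapped in both lines. The rise with IN in A549 (log2 0.36 ± 0.12) was called at an adjusted p of 0.0245 and was lost with DESeq2, with adjusted p between 1.55e-06 and 0.376 over all alternatives. GMNN encodes geminin, which binds CDT1 and blocks relicensing. It stood at 44.2 and 46.8 CPM in UT, 16.2 and 17.3 with PD, 56.9 and 53.8 with IN and 16.6 and 17.1 with P+I in A549. PD and P+I overlapped there. In SUM159 the values were 57.2 and 55.8 in UT, 24.7 and 22.7 with PD, 62.5 and 61.7 with IN and 20.6 and 21.6 with P+I.

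**Figure D2:**
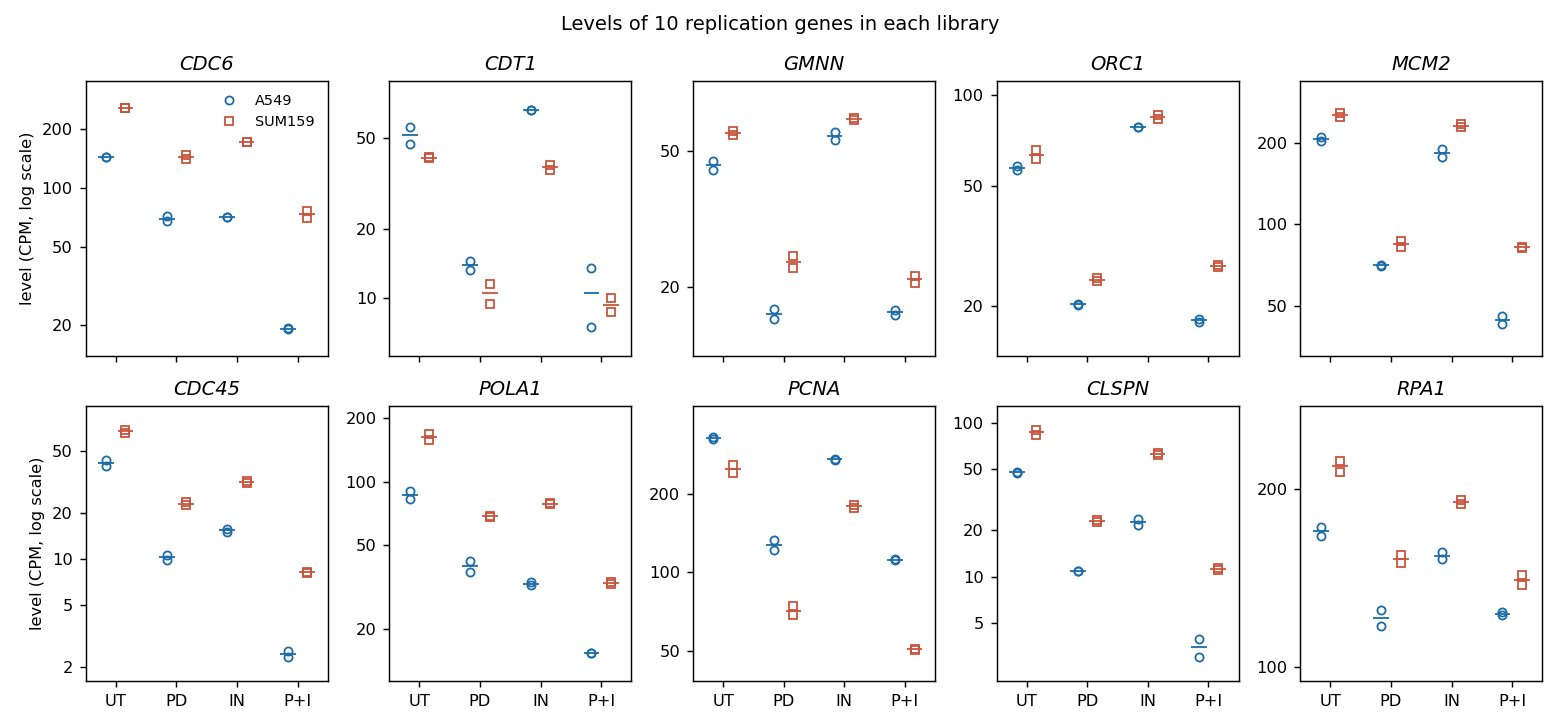
Level in CPM (log axis) of 10 replication genes in each library, by treatment (UT untreated, PD palbociclib, IN indisulam, P+I both). Each open circle is an A549 library and each open square a SUM159 library, and short bars are means of 2. CDC6, MCM2, CDC45, POLA1, PCNA and CLSPN are lower with each compound and lowest with P+I. MCM2 with P+I in SUM159 lies just below PD. CDT1, GMNN and ORC1 are as high with IN as in UT or higher, except CDT1 in SUM159.

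The 6 subunits of the MCM2-7 ring moved as a block with PD. All 6 were lower in both lines, by log2 changes from -1.68 (MCM7) to -0.93 (MCM3) in A549 and from -1.96 (MCM7) to -1.16 (MCM6) in SUM159. IN changed them by between -0.19 and -0.03 in A549 and between -0.27 and -0.04 in SUM159, and 4 of 6 were called lower in A549 and 5 of 6 in SUM159. Of these small falls, MCM2, MCM5 and MCM6 in A549 and MCM2, MCM4 and MCM5 in SUM159 were lost without 1 or more of the UT and IN libraries of the line, at values from -0.16 to -0.09 in A549 (without untreated replicate 1 or 2 or indisulam replicate 1 or 2) and from -0.13 to -0.10 in SUM159 (the same 4). MCM7, the most abundant subunit for its length, stood at 419.9 and 411 CPM in UT, 128 and 132 with PD, 402 and 413 with IN and 98.8 and 103 with P+I in A549, and at 414 and 414, 107 and 106, 368 and 375 and 96.6 and 98.9 in SUM159. UT and IN overlapped in A549 and not in SUM159, and P+I lay below PD in both lines. MCM2 stood at 211 and 204 CPM in UT, 70.4 and 70.9 with PD, 178 and 191 with IN and 46.0 and 42.8 with P+I in A549. In SUM159 it stood at 259 and 250.2 in UT, 82.6 and 86.5 with PD, 229 and 235 with IN and 82.0 and 82.4 with P+I. In A549 the P+I libraries thus lay clearly below the PD libraries, and in SUM159 they lay just below, a difference that was not called. The same contrast was seen in the ring as a whole, since P+I against PD lowered all 6 subunits in A549, by -0.67 (MCM2) to -0.36 (MCM7), and 5 of 6 in SUM159, by at most -0.31 (MCM6), with MCM2 not called. Of the 5 in SUM159, MCM3 was lost without palbociclib replicate 1 or combination replicate 1 (-0.09 to -0.08), and MCM5 (-0.12) and MCM7 (-0.10) without combination replicate 1.

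Among the genes of helicase activation and origin firing, CDC45, which completes the active helicase, stood at 43.6 and 40.0 CPM in UT, 9.90 and 10.6 with PD, 15.7 and 14.99 with IN and 2.53 and 2.30 with P+I in A549. In SUM159 it stood at 66.1 and 69.0 in UT, 22.2 and 23.3 with PD, 32.1 and 31.2 with IN and 8.14 and 8.22 with P+I. The 4 groups of each line did not overlap. The P+I level was 5.78% of UT in A549 (log2 -4.11 ± 0.11) and 12.1% in SUM159 (-3.05 ± 0.07), the lowest share left of any of the 49 genes in both lines. GINS2, a subunit of the GINS complex that joins CDC45 on the helicase, had the largest fall with PD in both lines. It went from 53.1 and 51.7 CPM to 10.5 and 10.6 in A549 (log2 -2.31 ± 0.07) and from 45.4 and 45.7 to 10.2 and 9.96 in SUM159 (-2.18 ± 0.06). With IN it stood at 40.8 and 41.6 in A549 and 34.6 and 34.5 in SUM159, and with P+I at 5.80 and 5.53 and at 7.86 and 8.03. The 4 GINS subunits did not move as 1 block under IN, where GINS4 fell by -0.67 in A549 and -0.51 in SUM159, GINS2 by -0.35 and -0.40, and GINS1 rose by 0.23 and 0.13. The rise of GINS1 in SUM159 was called at an adjusted p of 0.0496 and was lost in 5 of 6 other settings, with adjusted p from 0.00778 to 0.305 over all alternatives. GINS3 was not called in A549 and was called higher in SUM159 (0.20, adjusted p = 0.0287), with adjusted p from 0.00687 to 0.196. In SUM159 it stood at 28.8 and 27.2 CPM in UT, 15.7 and 15.1 with PD, 31.6 and 32.5 with IN and 13.4 and 15.7 with P+I, so that PD and P+I overlapped and IN lay above UT.

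MCM10, which helps the loaded helicase to start, was lower by -1.88 with PD, -0.54 with IN and -3.48 with P+I in A549 and by -1.63, -0.34 and -2.39 in SUM159. It stood at 89.96 and 89.3 CPM in UT and 8.60 and 7.50 with P+I in A549, and at 92.9 and 91.2 and at 18.03 and 17.0 in SUM159. The P+I values of SUM159 thus lay above those of A549 and the UT values lay close together, with each line scaled in its own fit. In the fit of both lines, UT levels of MCM10 per kilobase of transcript were 20.4 and 20.3 CPM in A549 and 19.2 and 18.99 in SUM159. TICRR, also called Treslin, brings CDC45 to origins in response to cyclin-dependent kinases. It went from 64.3 and 69.6 CPM in UT to 18.2 and 17.7 with PD and 11.3 and 10.4 with P+I in A549, and from 34.4 and 38.4 to 16.8 and 17.7 and to 14.1 and 11.8 in SUM159, and was not called with IN in either line. RECQL4, a helicase that takes part in origin firing, was lower by -2.18 with P+I in A549 and -1.20 in SUM159. DBF4 and CDC7, the kinase pair that acts on MCM2-7, were lower by -1.61 and -1.79 with P+I in A549 and by -1.34 and -1.35 in SUM159.

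Among the factors that protect the fork, CLSPN, the adaptor through which ATR reaches CHK1, fell most with PD and with P+I in both lines. It stood at 46.9 and 48.0 CPM in UT, 10.9 and 10.9 with PD, 21.6 and 23.7 with IN and 3.96 and 3.00 with P+I in A549. In SUM159 it stood at 83.2 and 89.9 in UT, 22.6 and 23.5 with PD, 63.4 and 61.9 with IN and 11.1 and 11.3 with P+I. The groups of each line were apart from one another, and P+I left 7.35% of the UT level in A549 and 12.9% in SUM159. WDHD1, which ties the helicase to polymerase alpha, was lower with IN by -1.14 in A549 and -0.41 in SUM159. The IN libraries held 33.7 and 35.5 CPM against 76.4 and 75.8 in UT in A549, and 59.4 and 60.5 against 78.4 and 80.7 in SUM159. TIMELESS and TIPIN, which form 1 complex at the fork, were lower with IN by -0.37 and -0.43 in A549 and by -0.22 and -0.30 in SUM159. Exons of TIPIN overlap a pseudogene on the same strand over 21.1% of their length, so its counts are uncertain.

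Polymerase alpha-primase makes the primers, and its 4 subunits differed widely. POLA1, the catalytic subunit of the polymerase, stood at 82.7 and 90.6 CPM in UT, 41.8 and 37.4 with PD, 33.2 and 32.4 with IN and 15.3 and 15.4 with P+I in A549. It was the only gene of the set besides ORC2, ORC3, ORC4 and ORC5 that had a lower estimate with IN than with PD in A549. In SUM159 POLA1 stood at 157 and 169 in UT, 68.1 and 68.6 with PD, 78.8 and 78.1 with IN and 32.7 and 33.5 with P+I. The accessory subunit POLA2, at 9.56 and 8.40 CPM in UT in A549, was not called with IN in either line, and its exons overlap another gene on the same strand over 16.8% of their length. PRIM1, the catalytic primase subunit, was lower by -1.91 with PD in A549 and by -1.96 in SUM159, and by only -0.22 and -0.24 with IN. The IN calls were lost without either UT library or indisulam replicate 2 in A549 (-0.24 to -0.15) and without untreated replicate 1 or indisulam replicate 2 in SUM159 (-0.20 to -0.19). Its exons overlap NACA and another gene on the same strand over 15.1%. PRIM2, the regulatory primase subunit, was lower with PD by -0.79 in A549 and -0.49 in SUM159. PRIM2 has a near-identical pseudogene copy, so its counts are also uncertain.

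Of the polymerases that extend the strands, POLE2, the second subunit of polymerase epsilon, was among the largest falls with IN and with P+I. It went from 22.8 and 23.1 CPM in UT to 6.12 and 7.11 with PD, 9.03 and 9.26 with IN and 1.84 and 1.92 with P+I in A549. In SUM159 it went from 34.8 and 34.2 to 12.4 and 11.3 with PD, 14.04 and 15.04 with IN and 4.59 and 4.83 with P+I, and the groups of each line did not overlap. The catalytic subunit POLE was not called with IN in A549 and was higher by 0.15 in SUM159 (adjusted p = 0.0086, from 0.00113 to 0.113 over the alternatives), while with P+I it was lower by -1.82 and -0.88. POLD1, the catalytic subunit of polymerase delta, was lower by -1.05 with PD in A549 and -1.04 in SUM159 and was not called with IN. POLD2, an accessory subunit of polymerase delta, changed least of the delta and epsilon subunits with PD and with P+I, at -0.37 with PD and -0.66 with P+I in A549 and -0.27 and -0.35 in SUM159. POLD3, another, was lower by -1.69 and -1.45 with P+I.

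PCNA, the sliding clamp that holds the polymerases on DNA, was the gene most strongly lowered in SUM159 relative to A549 with PD and with P+I. It stood at 331 and 325 CPM in UT, 122 and 133 with PD, 273 and 270.3 with IN and 112 and 111 with P+I in A549. SUM159 libraries held 242 and 258 in UT, 74.2 and 68.3 with PD, 182 and 176 with IN and 50.4 and 50.7 with P+I. P+I left 34.1% in A549 and 20.2% in SUM159. Of the 5 subunits of the clamp loader RFC, RFC1, the large subunit, fell least, by -0.70 with PD in A549 and -0.61 in SUM159, and RFC2 to RFC5 by -0.93 to -1.35 and -0.90 to -1.30. IN lowered RFC2 by -0.56 and -0.52, and in SUM159 it raised RFC1 by 0.15 (adjusted p = 0.00401, kept in every alternative but the one that asks for a log2 change of at least 1). FEN1, which cuts flaps at the ends of Okazaki fragments, and LIG1, which joins them, were lower with P+I by -2.05 and -1.73 in A549 and by -1.68 and -1.80 in SUM159.

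The 3 subunits of RPA, which coats single-stranded DNA in replication and also in repair, changed less than most of the set. RPA1 stood at 173 and 167 CPM in UT, 117 and 125 with PD, 153 and 156 with IN and 124 and 122 with P+I in A549. SUM159 held 214 and 223 in UT, 155 and 149.8 with PD, 192 and 189 with IN and 138 and 143 with P+I. PD and P+I overlapped in A549 and not in SUM159. With P+I the subunits kept between 58.3% and 72.6% of the UT level in A549 and between 57.1% and 64.2% in SUM159.

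Adding IN to PD lowered most of the genes further. P+I against PD called 37 of 49 lower in A549, where 27.8% of all genes were called lower, and 34 of 49 in SUM159, where 24.9% were. It called 1 gene higher in A549, GINS1 (0.20; 23.7% of all genes were called higher), and 3 in SUM159, ORC1 (0.15), POLD1 (0.27) and RFC1 (0.15; 23.4% of all genes). The median log2 change was -0.43 in A549 and -0.27 in SUM159, against -0.01 and 0.01 over all genes. The largest falls were CDC45 (-2.09 in A549 and -1.48 in SUM159), CDC6 (-1.86 and -0.97), POLE2 (-1.83 and -1.33) and CLSPN (-1.65 and -1.04). ORC1 was called in opposite directions. Its log2 change was -0.17 ± 0.06 in A549, with an adjusted p of 0.0374, whereas SUM159 gave 0.15 ± 0.06, with an adjusted p of 0.0426, and in a test added after the data were seen the difference was 0.29 ± 0.09 (adjusted p = 0.0196, edgeR). The A549 call was lost without any 1 library (-0.17 to -0.15), the SUM159 call without any 1 library but untreated replicate 2 (0.13 to 0.16), and the difference without A549 combination replicate 2, SUM159 palbociclib replicate 2 or SUM159 combination replicate 2 (0.28 to 0.29). GINS1 was lost without A549 palbociclib replicate 2 or combination replicate 1 (0.10 to 0.18), and RFC1 without SUM159 combination replicate 2 (0.11). Adding PD to IN lowered 48 of 49 genes in A549, where 20.1% of all genes were called lower and 18.6% higher, and all 49 in SUM159, where 28% were called lower and 24.9% higher. In neither line was a gene of the set called higher by edgeR or DESeq2, and at an unadjusted p under 0.05 there was 1, ORC4, in A549 and 0 in SUM159.

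The combination was then compared with the sum of the log2 changes of PD and IN. In A549, 17 of 49 genes fell further than that sum, while 2.05% of all genes departed downward and 1.49% upward. In SUM159, 9 of 49 did, while 2.16% of all genes departed downward and 2.22% upward. No gene of the set departed upward with edgeR or DESeq2 in either line, and 1 in each line did so at an unadjusted p under 0.05. The genes called in both lines were ORC6, CDC6, MCM10, CDC45, TICRR, POLE and RFC5. Of these, CDC6 kept its call in both lines in every fit that left out 1 library. MCM10 was lost only without SUM159 combination replicate 2 (-0.39), and ORC6 only without either A549 indisulam replicate (-0.73 to -0.66). The call of CDC45 was less firm, since it was lost in A549 without any 1 library (-0.71 to -0.55) and in SUM159 without any 1 except the palbociclib replicates (-0.42 to -0.37). POLE was lost in 6 of 8 such fits in each line (-0.39 to -0.27 and -0.26 to -0.21), and RFC5 in 7 in A549 (-0.41 to -0.23) and in 4 in SUM159 (-0.34 to -0.29). In A549 the others were ORC1, GINS2, RECQL4, FEN1 and all 6 subunits of the MCM2-7 ring. Of these, MCM6 was lost without any 1 library except combination replicate 2 (-0.29 to -0.18) and MCM7 without indisulam replicate 2 (-0.32), while GINS2 (-0.56 to -0.53) and FEN1 (-0.40 to -0.34) were each lost without either untreated replicate, palbociclib replicate 2 or either indisulam replicate. The calls of ORC1, RECQL4 and MCM2 to MCM5 were kept in every such fit. In SUM159 the others were CLSPN and GMNN, the latter lost in 7 of 8 such fits (-0.34 to -0.26). The 3 largest departures in A549 were MCM10 (-1.05 ± 0.10, adjusted p = 9.49e-05), CDC6 (-0.85 ± 0.07, adjusted p = 9.49e-05) and RECQL4 (-0.81 ± 0.12, adjusted p = 0.00375), and in SUM159 CLSPN (-0.58 ± 0.09, adjusted p = 0.00201), ORC6 (-0.48 ± 0.08, adjusted p = 0.00218) and TICRR (-0.45 ± 0.11, adjusted p = 0.0316). The departure of TICRR in SUM159 was lost without untreated replicate 1, palbociclib replicate 2, either indisulam replicate or combination replicate 2, at values from -0.48 to -0.34, and the 5 others with values here kept their call in every fit that left out 1 library. POLA1, which each compound alone lowered strongly, was not called in either line.

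The departure of the ring was between -0.50 and -0.26 in A549 and between -0.09 and 0.09 in SUM159. A test of this difference between lines, added after the data were seen, called 2 of the 49 genes, MCM2 (0.56 ± 0.09, adjusted p = 0.0114) and MCM5 (0.47 ± 0.08, adjusted p = 0.019), both less negative in SUM159, where 0.0394% of all 17764 genes were called in that direction and 0.0788% in the other. In the other direction no gene of the set was called, at an unadjusted p under 0.05 or with DESeq2. MCM5 was lost in 8 of 16 fits that left out 1 library, at values from 0.43 to 0.50, and MCM2 without A549 palbociclib replicate 2 (0.57). The count was 0 without A549 palbociclib replicate 2, 10 without A549 combination replicate 1, and 1 without untreated replicate 2 of either line, either A549 indisulam replicate, SUM159 indisulam replicate 1 or either SUM159 combination replicate. The 17 calls in A549 became 11 without either untreated replicate, 10 without indisulam replicate 1 and 9 without indisulam replicate 2. The 9 calls in SUM159 became 5 without untreated replicate 1, indisulam replicate 1 or combination replicate 1, 4 without indisulam replicate 2 and 3 without combination replicate 2.

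**Figure D3:**
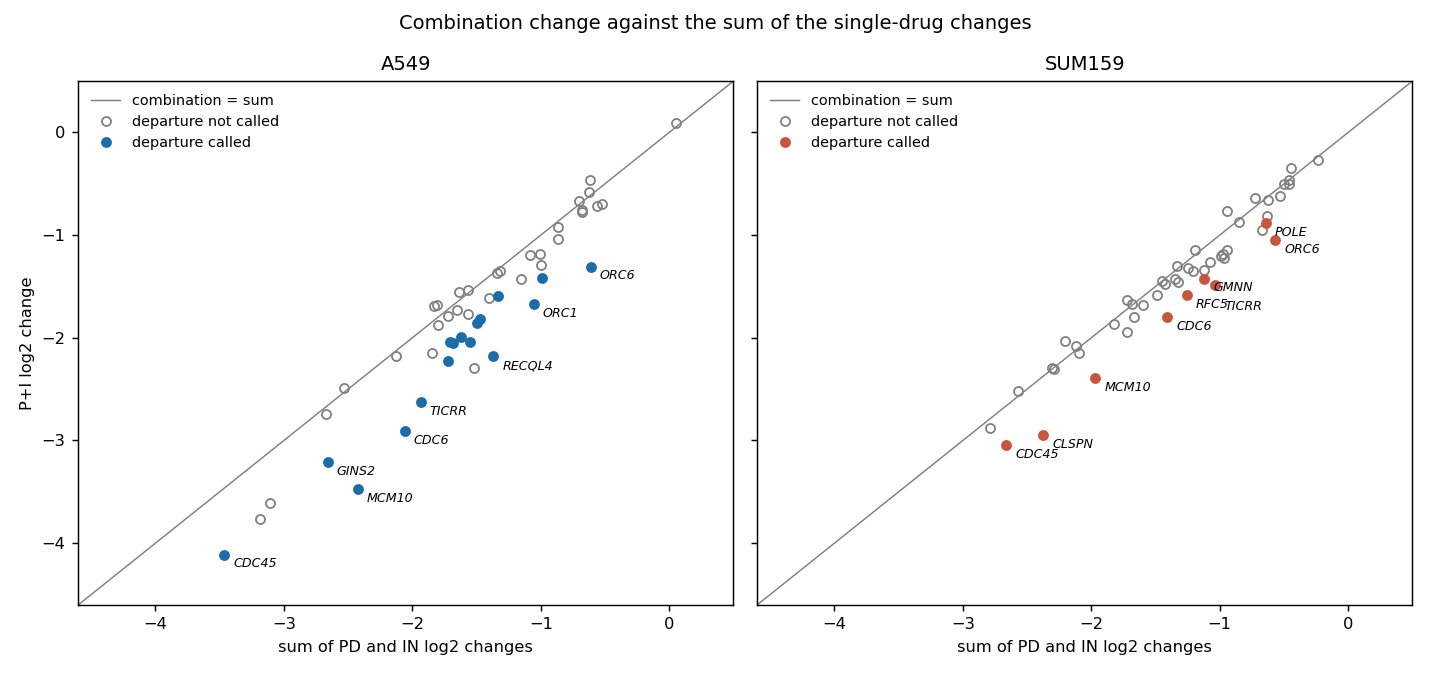
Log2 change with P+I (vertical axis) against the sum of the log2 changes with PD and with IN (horizontal axis) for the 49 genes in A549 and SUM159, each against untreated cells. The line marks equality, filled points departed from it at an adjusted p-value under 0.05, and named points are all called genes in SUM159 and the largest departures in A549. The 17 filled points of A549 and the 9 of SUM159 all lie below the line.

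In untreated cells 37 of the 49 genes differed between the 2 lines, a share close to that of all 17764 genes tested. Relative to A549, 23 of 49 were higher in SUM159, where 38.3% of all genes were called higher, and 14 were lower, where 38% were. Without the filter on low counts the split of the 49 was 20 and 18. To compare levels between genes, CPM from the fit of both lines was divided by the length of the canonical transcript in kilobases. CPM of the 49 genes given elsewhere were scaled in the fit of each line alone, so these scales differ. PCNA was the most abundant gene in both lines, at 268 and 264 CPM per kilobase in the A549 and 178 and 191 in the SUM159 libraries, followed by MCM7 at 176 and 173 and at 158 and 159. POLA2 was the least abundant, at 2.79 and 2.45 in A549 and 2.18 and 2.14 in SUM159. ORC4 was next in A549, at 4.36 and 4.45, and TICRR in SUM159, at 4.77 and 5.36. The largest difference was in ORC3, at 14.7 and 13.1 in A549 and 32.4 and 32.2 in SUM159, a log2 difference of 1.21 ± 0.06. TIMELESS was lower in SUM159, at 21.1 and 21.5 against 44.4 and 44.9 in A549 (-1.07 ± 0.05), and so was TICRR (-1.01 ± 0.07).

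The response to PD differed between the lines for 21 of the 49 genes. In 18 the log2 change was higher, that is the fall was smaller, in SUM159 (9.65% of all genes were called in that direction) and in 3 it was lower (3.15%). The largest differences were in TICRR (0.93 ± 0.11), POLA2 (0.83 ± 0.19) and POLE (0.66 ± 0.07), and the 3 genes that fell further in SUM159 were PCNA (-0.35 ± 0.07), MCM7 (-0.19 ± 0.05) and MCM3 (-0.18 ± 0.05). The split depended on the scaling. It became 8 and 4 with the size factors of DESeq2, which moved the median difference of all genes from 0.08 to -0.02. Left-out libraries moved the count of 21 to 8 without A549 untreated replicate 1, 10 without untreated replicate 2, 9 without palbociclib replicate 1, 12 without palbociclib replicate 2, 11 without indisulam replicate 1 and 12 without indisulam replicate 2 of A549, and to 13 without SUM159 palbociclib replicate 2. In each of the 8 fits without an A549 library the median over all genes lay below 0, from -0.10 to -0.05, and 3 to 8 genes of the set were higher in SUM159 and 4 to 7 lower. TICRR, POLE and PCNA kept their call in all 16 fits, whereas POLA2 was lost without A549 untreated replicate 1 or palbociclib replicate 1 (0.56 to 0.57) and MCM7 and MCM3 without SUM159 untreated replicate 2 or palbociclib replicate 2 (-0.19 to -0.16).

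The response to IN differed for 11 genes, 9 with a higher log2 change in SUM159 (8.04% of all genes) and 2 with a lower one (6.97%). WDHD1 (0.73 ± 0.08), ORC5 and CLSPN (0.60 ± 0.09) differed most, all 3 less lowered in SUM159. The 2 others were CDT1 (-0.50 ± 0.15), which rose with IN in A549, and PCNA (-0.21 ± 0.06). The count was 7 without A549 untreated replicate 2 or without SUM159 untreated replicate 1. CDT1 was lost without A549 untreated replicate 2, either A549 indisulam replicate, or any 1 of the SUM159 UT and IN libraries (-0.53 to -0.39). PCNA was lost without A549 untreated replicate 2, A549 indisulam replicate 1, SUM159 untreated replicate 2 or either SUM159 indisulam replicate (-0.23 to -0.16).

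The response to P+I differed for 34 genes. In 32 the fall was smaller in SUM159, where 19.1% of all genes were called in that direction, and in 2, PCNA (-0.69 ± 0.07) and ORC4 (-0.29 ± 0.09), the change was lower in SUM159, where 11.8% were. The median difference was 0.33 against 0.10 over all genes. Leaving out any 1 A549 library moved the median over all genes to between -0.06 and -0.02 and that of the 49 to between 0.14 and 0.20, with 20 to 23 genes higher and 3 lower in SUM159. Without 1 SUM159 library, 24 to 32 were higher and 1 to 2 lower. The largest were TICRR (1.21 ± 0.12, adjusted p = 5.28e-08), CDC6 (1.17 ± 0.07, adjusted p = 2.18e-11) and MCM10 (1.15 ± 0.10, adjusted p = 1.09e-08). In the terms of each line, P+I left 16.2% of TICRR in A549 and 35.7% in SUM159, and 8.99% and 19.1% of MCM10. With the size factors of DESeq2 the split was 23 and 3. ORC4 was lost without SUM159 untreated replicate 2 or combination replicate 1 (-0.26 in both fits). What IN added to PD was also compared between lines, in a test added after the data were seen. It was less negative in SUM159 for 21 genes (9.91% of all genes) and more negative for 2 (10.8%), PCNA (-0.33 ± 0.07) and RPA1 (-0.17 ± 0.06), of which RPA1 was called only in the 3 fits without A549 palbociclib replicate 2, SUM159 palbociclib replicate 2 or SUM159 combination replicate 2 when 1 library was left out (-0.17 to -0.10 in the other 13). The largest differences were in CDC6 (0.86 ± 0.07), MCM10 (0.80 ± 0.11) and ORC5 (0.64 ± 0.09). These tests share libraries with each other.

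**Figure D4:**
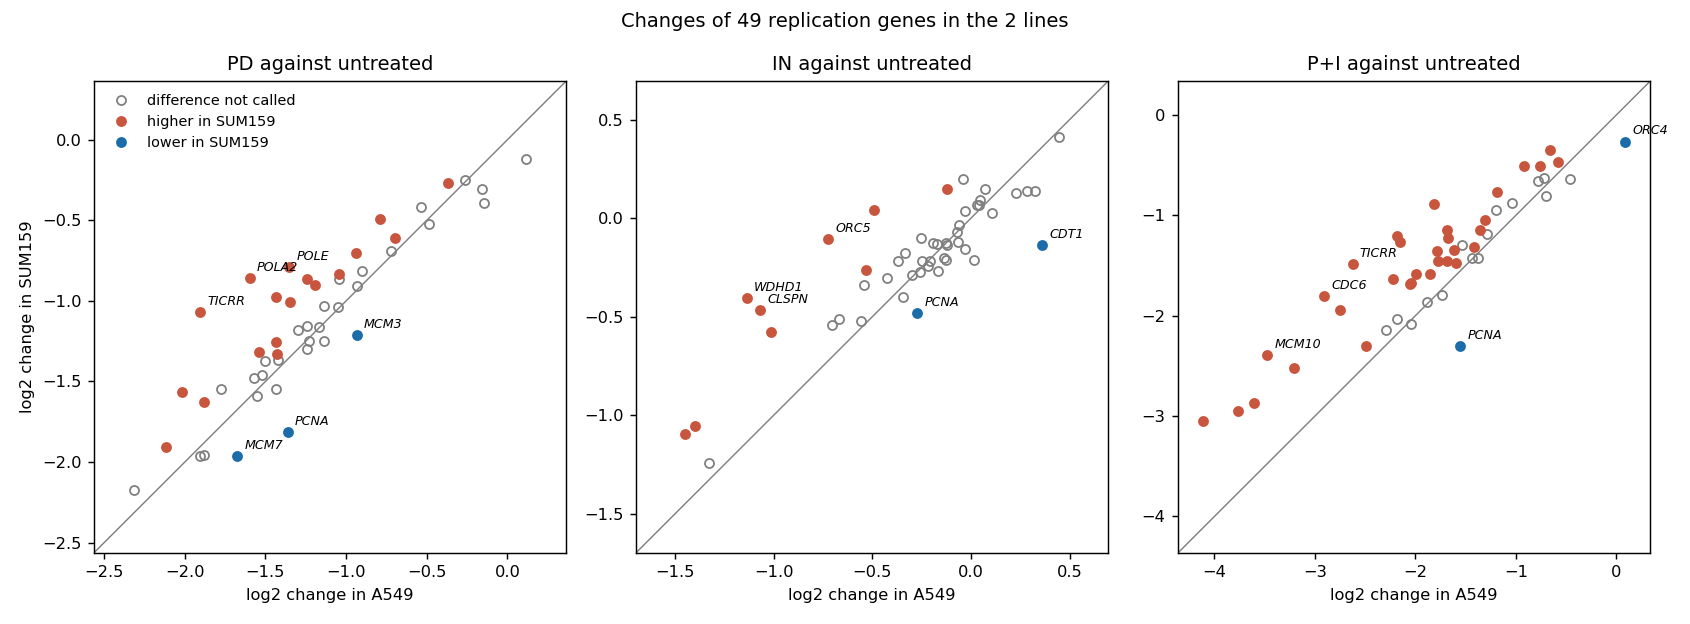
Log2 change of the 49 genes in SUM159 (vertical axis) against that in A549 (horizontal axis), from the fit of each line, for PD, IN and P+I against untreated cells. The line marks equality, and filled points differed between lines in the fit of both lines (red, higher in SUM159; blue, lower in SUM159). With P+I, 32 points are red and PCNA and ORC4 are the 2 blue ones.

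A list of 40 other replication genes was read in the same way. It holds chromatin assembly factors, checkpoint genes, topoisomerases and further fork factors. With PD 31 were lower and 1 higher in A549 and 36 lower and 1 higher in SUM159. With IN 21 were lower and 7 higher in A549 and 20 lower and 5 higher in SUM159, and with P+I 33 were lower and 2 higher in A549 and 36 lower and 1 higher in SUM159. The median log2 change with P+I was -1.17 in A549 and -1.07 in SUM159. TOP2A, which untangles replicated DNA, fell most with P+I in both lines, by -4.00 and -2.87. Of the histone chaperones, CHAF1A and CHAF1B were lower with P+I by -1.82 and -2.31 in A549 and -1.52 and -1.61 in SUM159, ASF1B by -2.97 and -2.19, and NASP by -1.25 and -1.31. ASF1A was higher by 0.35 in A549 and was not called in SUM159 (-0.08, adjusted p = 0.273). ATR, the kinase of the replication checkpoint, was not called with PD in either line and was lower with IN by -0.69 in A549 and -0.90 in SUM159, whereas its target CHEK1 was lower with PD by -0.86 and -0.83. POLD4, the small subunit of polymerase delta, rose in every treatment, by 0.95 with PD, 0.55 with IN and 1.03 with P+I in A549 and by 1.01, 0.65 and 0.95 in SUM159. Exons of POLD4 overlap another gene on the same strand over 21.3% of their length, so its counts are uncertain.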

How the data were processed

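Poly(A) RNA of A549 and SUM159 cells was sequenced in 16 libraries, and groups were taken from the sample labels. The deposited files hold raw counts per Ensembl gene, which the authors made by alignment with HISAT2 2.2.1 to GRCh38 and counting with HTSeq. The HTSeq version, annotation release and strand setting are not given in the sources used here. The libraries were strand-specific. Whether reads in exons shared with a gene on the other strand were counted or set aside as ambiguous is not known. Ambiguous rows held 4.38 to 5.625% of the reads of a library. Exons of 20 of the 49 genes overlap a gene on the other strand, so their counts are uncertain. The overlap was over 10% of exon length for MCM2, GINS4, GINS3 and RFC5. Exons of 7 overlap another gene on the same strand. Of 58676 identifiers, 58207 matched GENCODE 44, from which names and transcript lengths were taken. Rows that name no gene held 13.23 to 16.39% of the reads of a library and were left out.

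Genes were filtered with filterByExpr (minimum count 10), scaled by TMM and tested with the edgeR 4.0.16 quasi-likelihood F test in R 4.3.3, with 1 fit of 8 libraries per line and 1 fit of 16 libraries for differences between lines. P-values were adjusted by the Benjamini-Hochberg method over all genes tested, with a threshold of 0.05. SE is the log2 change divided by the root of F. The departure from the sum is the contrast P+I - PD - IN + UT. The script was tested on simulated data. Alternatives were DESeq2 1.42.0, its size factors, total counts, no filter, a log2 change of at least 1, a fit of both lines, the replicate block, and leaving out each library.

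The members and lists were chosen with earlier results of these data known. All 49 members are described by role. Every library is given for 10 members set beforehand, for the 2 largest falls and 2 largest rises in each comparison with UT, and for members called in opposite directions in the 2 lines. The 3 largest differences or departures are named. Others were singled out after their values were seen. Duplicates are technical, so p-values measure the spread between these libraries only. Duplicates differed by more than sampling noise (chi-square per degree of freedom 1.59 to 9.13) and were kept as 2 libraries.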

Additional observations from a re-analysis of the deposited data

Results flagged for a closer look

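Several results were singled out because a test of the difference found the same treatment acting unequally in the 2 lines. The values are SUM159 minus A549 on the log2 scale, from the edgeR fit of both lines with 2 libraries per group. For PD the largest were TICRR (0.93), POLA2 (0.83) and POLE (0.66), and the genes lowered further in SUM159 were PCNA (-0.35), MCM7 (-0.19) and MCM3 (-0.18). For IN they were WDHD1 (0.73), ORC5 (0.62) and CLSPN (0.60), with CDT1 (-0.50) and PCNA (-0.21) in the other direction. For P+I they were TICRR (1.21), CDC6 (1.17) and MCM10 (1.15), with PCNA (-0.69) and ORC4 (-0.29) in the other direction. In the test of what IN added to PD, chosen after the data were seen, they were CDC6 (0.86), MCM10 (0.80), ORC5 (0.64) and ORC1 (0.29), with PCNA (-0.33) and RPA1 (-0.17) in the other direction. In the test of the departure from the sum, also chosen after the data were seen, they were MCM2 (0.56) and MCM5 (0.47). Which of these were lost without 1 library is given with each result above.

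Reads that fell in no annotated gene, which none of the comparisons used, exceeded those of both untreated libraries in 5 treated groups. The share was 5.84% with IN and 5.25% with P+I in A549 (means of 2), against 4.02 and 4.57% in the 2 untreated libraries. In SUM159 it was 5.21% with PD, 5.89% with IN and 6.36% with P+I, against 3.99 and 3.89%. The part of these reads in the changes of the replication genes was not tested.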

How the results depend on the processing

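Of 620 values of single genes (each gene in each treatment against UT, and every called value elsewhere), 611 kept their direction under every alternative and 492 also their side of the threshold. Calls lost numbered 58 with DESeq2, 31 with total counts, 27 with DESeq2 size factors, 26 without the filter and, in the fit of both lines, 6 of 492. A log2 change of at least 1 left, of the genes called in either direction, 6 of 33 for IN in A549 and 3 of 35 in SUM159, 29 of 48 for PD in SUM159, 7 of 38 and 4 of 37 for P+I against PD, 1 of 17 and 0 of 9 for the departure, 3 of 37 for untreated lines, 0 of 21, 0 of 11 and 5 of 34 for the responses to PD, IN and P+I between lines, 0 of 23 for IN added to PD and 0 of 2 for the departure between lines. Over all genes with IN the limit left 499 of 3667 higher and 790 of 4081 lower calls in A549. In SUM159 it left 601 of 3527 and 300 of 4011 with IN, and 900 of 4101 and 337 of 4660 with PD. For the P+I response between lines it left 1013 of 3386 and 116 of 2096. These counts are smaller because the size limit was added to the same test. The 9 departures in SUM159 became 4 with DESeq2. The 21 differences in the PD response became 12 with DESeq2 size factors and 11 with DESeq2. The 2 differences in departure became 6 with DESeq2 and 6 without the filter. The cause was not tested.

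With 1 library left out, the called genes numbered 45 to 48, 27 to 36 and 48 to 48 for PD, IN and P+I in A549, 48 to 49, 27 to 35 and 49 to 49 in SUM159, 32 to 37 and 29 to 39 for P+I against PD, 47 to 48 and 48 to 49 for P+I against IN, 9 to 16 and 3 to 10 for the departure, 33 to 38 for untreated lines, 8 to 17, 7 to 12 and 23 to 34 for the responses to PD, IN and P+I between lines, 17 to 23 for IN added to PD and 0 to 10 for the departure between lines.

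Some small changes changed sign. Those of IN were not called. For IN with total counts these were MCM7 in A549 (0.0002) and MCM3 in SUM159 (0.017). For IN with 1 library left out they were GINS3 (-0.114 to 0.043) and TICRR (-0.085 to 0.031) in A549, above 0 without untreated replicate 2, RPA3 in A549 (-0.037 to 0.0805), below 0 without indisulam replicate 2 or combination replicate 1 or 2, TICRR in SUM159 (-0.036 to 0.116), below 0 without untreated replicate 1, and PRIM2 in SUM159 (-0.031 to 0.0895), below 0 without indisulam replicate 1. The called PD response differences of POLD2 (-0.0092 to 0.213) and RFC1 (-0.017 to 0.197) fell below 0 without A549 untreated replicate 1. With total counts the median of all genes was 0.12 for PD and 0.16 for P+I in SUM159, up from 0.02 and 0.01.

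Equal replicate numbers did not pair the libraries (correlations of deviations from -0.114 to 0.114). With the replicate block 16 of 620 calls changed, the departures in SUM159 numbered 6 and the differences in departure 1 in place of 2. With the numbers crossed for P+I against PD, 1 gene was higher and 37 lower in A549 and 3 higher and 34 lower in SUM159.

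Technical duplicates limit every p-value to the spread between these libraries, and the sources do not say whether the duplicates came from the same culture. Depth limits most the genes with few counts, such as POLA2 and POLE2 with P+I.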
